A study of Mus musculus with 6 samples.

Results

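TCRab CD8aa intraepithelial lymphocytes (IEL) of the mouse small intestine were set against both other IEL subsets of the same study at once. The comparison took all 6 arrays of the series, 2 of TCRab CD8aa against 4 others, which were 2 of TCRab CD8ab and 2 of TCRgd CD8aa. A probe set, the group of probes that measures 1 transcript, was called private to TCRab CD8aa when its TCRab CD8aa signal was higher, or lower, in all 4 differences taken within an experiment. Of 8296 probe sets that passed a filter on low signal (called measured below), 857 (10.3%) were higher and 949 (11.4%) were lower in this sense, and 9 (0.108%) and 28 (0.338%) were so by at least 1 log2 unit each time. The 4 differences are not independent, since those of 1 experiment share its TCRab CD8aa array, and the counts of 1 sign are a description with no test. The genes that stood farthest above both other subsets were receptors of the Ly49 family and Zbtb16. Those farthest below included Penk, Eya2, Cd151 and Scin. Other probe sets of Cd151 gave mixed signs, and on a brighter probe set of Penk TCRgd CD8aa lay close to TCRab CD8aa. With 2 arrays on 1 side and 4 on the other, no probe set passed an adjusted p of 0.05 in the comparison as fitted.

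All mice were C57BL/6 under 8 weeks of age, with no treatment, transgene or deletion named in the labels. IEL of 20 mice were pooled, all 3 subsets were sorted from that pool, and RNA of each subset was put on 1 Affymetrix array. A further experiment on another occasion used a new pool of 20 mice, so the replicate number is the experiment and pairs the arrays. The sorted groups were cells with the TCR alpha beta receptor and the CD8aa homodimer (TCRab CD8aa), cells with the same receptor type and the CD8ab heterodimer (TCRab CD8ab), and cells with the TCR gamma delta receptor and the CD8aa homodimer (TCRgd CD8aa). Titles of the last group write TCRgb, and the source descriptions, which write TCRgd, were followed. Each value stands for a pool, so the errors below describe pools and not single mice. Fewer cells of a type and less RNA per cell cannot be told apart in such samples.

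IEL lie between the epithelial cells of the gut. CD8ab IEL descend from conventional T cells that met antigen in lymphoid tissue. TCRab CD8aa IEL come from self-reactive thymic precursors that take an agonist-driven route, and like TCRgd IEL they are known for receptors shared with natural killer (NK) cells. Ly49 receptors are lectin-like surface proteins encoded side by side in the NK gene complex. Most bind class I MHC and inhibit the cell, and a few members activate it through the adaptor Tyrobp, also known as DAP12. Zbtb16 encodes PLZF, the transcription factor that directs innate-like T cells such as NKT cells.

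The arrays had median signals of 83.4 to 113 in linear units, with TCRab CD8aa replicate 2 the lowest, and 1.89% to 3.44% of the measured probe sets lay at the floor of log2 3.94, again most on TCRab CD8aa replicate 2. Beta-actin control probes at the 3′ end exceeded those at the 5′ end, a sign of RNA or labelling quality, by 1.41 to 1.76 times on the experiment 1 arrays and by 40.4 to 52.2 times on those of experiment 2. TCRgd CD8aa replicate 2 stood apart in markers of other cells. The signals of the 18 enterocyte markers on the array summed to 28479 there and to 1187 to 2538 on the other 5 arrays, and those of 14 B and plasma cell markers to 58575 against 2443 to 13409. The log2 signal of Cd8b1, the beta chain of CD8, was 4.88 and 7.51 in TCRab CD8aa (experiments 1 and 2), 14.11 and 14.75 in TCRab CD8ab, and 4.81 and 9.58 in TCRgd CD8aa. Cd8a, the chain shared by all 3 subsets, differed by 0.12 ± 0.23 log2 between TCRab CD8aa and the other arrays, where the error, as in all such values below, is the SE of the fit for 2 arrays against 4. Trgv4, a gamma chain segment, was at 13.02 and 12.61 in TCRab CD8aa, above TCRab CD8ab (11.56 and 10.74) and below TCRgd CD8aa (15.10 and 14.26).

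Because the genes that stood highest belong largely to 1 gene cluster, the promoters of 3 of its members, Klra5, Klra6 and Klra7, are shown. They were picked for their resemblance, which is not particular to them, since Klra3 shares it. Not every start of the cluster aligned with them. They are RefSeq sequences on GRCm38.p6, from 250 bases before to 50 bases after the start of the gene, all on the minus strand of chromosome 6. Klra5 lies at chr6:129913175-129913474, Klra6 at chr6:130026905-130027204 and Klra7 (the start that resembles the others) at chr6:130233273-130233572. Capitals mark the letters TCAAAG or their reverse complement CTTTGA, the core of the TCF/LEF motif.
Klra5: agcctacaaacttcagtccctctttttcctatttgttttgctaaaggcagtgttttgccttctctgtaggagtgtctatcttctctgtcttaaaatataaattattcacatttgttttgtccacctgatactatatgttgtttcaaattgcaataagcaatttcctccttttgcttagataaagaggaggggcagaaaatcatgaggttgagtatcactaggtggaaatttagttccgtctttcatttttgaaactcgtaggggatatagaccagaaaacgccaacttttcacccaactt
Klra6: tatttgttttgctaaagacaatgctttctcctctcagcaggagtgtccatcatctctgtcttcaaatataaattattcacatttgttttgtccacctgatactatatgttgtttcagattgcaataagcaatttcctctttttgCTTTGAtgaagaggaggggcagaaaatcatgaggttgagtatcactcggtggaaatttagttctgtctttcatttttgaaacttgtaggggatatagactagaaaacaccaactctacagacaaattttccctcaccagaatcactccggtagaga
Klra7: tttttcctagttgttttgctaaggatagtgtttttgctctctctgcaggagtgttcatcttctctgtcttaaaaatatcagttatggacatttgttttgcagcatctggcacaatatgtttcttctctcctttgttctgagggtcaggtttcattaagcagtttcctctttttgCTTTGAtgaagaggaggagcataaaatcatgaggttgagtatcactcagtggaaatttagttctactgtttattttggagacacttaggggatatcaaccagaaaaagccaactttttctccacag

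The Klra5 and Klra6 promoters were identical at 246 of 271 aligned bases (90.8%), Klra5 and Klra7 at 224 of 291 (77.0%), and Klra6 and Klra7 at 215 of 281 (76.5%). All 3 held the 24-base run aaaatcatgaggttgagtatcact. Klra6 and Klra7 shared the 30-base run tttcctctttttgctttgatgaagaggagg, which contains the TCF/LEF letters, and Klra5 had no such letters in this window. Either orientation of those letters occurred in 16% of 32851 RefSeq promoters of the same length. The RUNX core TGTGGT or ACCACA, found in 16.8% of them, was in none of the 3. Klra1, a gene of the probe set with the largest difference, has its start at chr6:130386825-130387124 and aligned with these 3 over only 13 to 42 bases. It held RUNX letters and no TCF/LEF letters. Another start of Klra7 aligned with Klra5 and Klra6 over 29 and 44 bases. The Klra3 promoter, not shown, was identical to Klra6 at 186 of 200 aligned bases (93.0%) and to Klra5 at 206 of 229 (90.0%). It held neither the TCF/LEF nor the RUNX letters, and the smallest of the 4 signal differences of Klra3 was 0.15 log2. Among the 15 genes described below as leading on the high side, 14 had a promoter in the table, of which 3 held the TCF/LEF and 2 the RUNX letters. Of the 8 promoters found for the 15 leading low genes, 1 held each. A match of letters is a description of the sequence and not a binding site.

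The probe set with the largest difference of all was annotated to Klra22, Klra16 and Klra1, members of the Ly49 family, of which Klra1 encodes the inhibitory receptor Ly49A. It carries several symbols, lies outside the naming rule, and was singled out after its values were seen. Its log2 signal was 9.55 and 10.94 in TCRab CD8aa, 3.94 (the floor) and 4.52 in TCRab CD8ab, and 5.14 and 6.43 in TCRgd CD8aa. In linear units the TCRab CD8aa signals were 751.8 and 1962.8, and the highest of the other 4 was 86.5. The groups did not come near each other, and the smallest of the 4 within-experiment differences was 4.42 log2, or 21.4-fold. TCRab CD8aa exceeded the mean of the other 4 arrays by 5.24 ± 0.62 log2 (SE, n = 2 against 4, adjusted p = 0.0885 in limma), at least 37.8-fold because 1 of the others lay at the floor. Taken singly, the difference from TCRab CD8ab was 6.02 ± 0.51 (adjusted p = 0.00121) and that from TCRgd CD8aa 4.46 ± 0.51 (adjusted p = 0.0384), and the test that asks for both at once gave an adjusted p of 0.0768. Without TCRgd CD8aa replicate 2 the probe set passed, with a difference of 5.62 and an adjusted p of 0.0316.

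Klra7 encodes Ly49G, an inhibitory receptor for class I MHC. It had log2 signals of 9.88 and 9.57 in TCRab CD8aa, 5.67 and 7.01 in TCRab CD8ab, and 7.30 and 7.53 in TCRgd CD8aa. Both TCRab CD8aa arrays lay above all others, by 2.85 ± 0.51 log2 on average (SE, adjusted p = 0.956), or 7.20-fold. Its other probe set gave 9.79 and 9.26 against 4.83 to 7.35. Klra6, which encodes Ly49F, was at 10.02 and 9.45 in TCRab CD8aa, 5.72 and 6.52 in TCRab CD8ab, and 8.01 and 7.84 in TCRgd CD8aa, a difference of 2.71 ± 0.67 (adjusted p = 0.976).

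Klra5, which encodes Ly49E, was the brightest, at 11.63 and 9.92 in TCRab CD8aa. TCRab CD8ab had 6.44 and 6.03 and TCRgd CD8aa 10.54 and 8.43, so within each experiment TCRab CD8aa led, but TCRgd CD8aa of experiment 1 exceeded TCRab CD8aa of experiment 2. The mean difference was 2.92 ± 1.07 (adjusted p = 0.976). Klra3, encoding Ly49C, showed the same order with a narrower margin, at 8.95 and 9.59 in TCRab CD8aa, 8.80 and 8.81 in TCRgd CD8aa, and 6.07 and 6.75 in TCRab CD8ab.

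Of 12 probe sets annotated to a Klra gene, 9 were measured, and TCRab CD8aa was higher in all 4 differences in each of the 9, against 10.3% of all measured probe sets. The other 3 were dim, at 5.70 or less on every array, and Klra2 was at the floor on all 6. The margin over TCRgd CD8aa was small in some: a probe set of Klra9 and Klra3 read 7.61 in TCRab CD8aa and 7.60 in TCRgd CD8aa in experiment 2. Members of this family are near copies of each other, so a probe set may read more than 1 of them, and the 9 are not independent measurements. A filter on low values also favours a gene that is bright in only 1 subset.

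Zbtb16 (PLZF) had log2 signals of 8.54 and 8.93 in TCRab CD8aa and 7.07 and 6.94 in TCRgd CD8aa, and lay at the floor on both TCRab CD8ab arrays. TCRab CD8aa thus stood 1.73 ± 0.52 log2, or 3.32-fold, above TCRgd CD8aa (adjusted p = 1.0) and at least 27.9-fold above TCRab CD8ab (adjusted p = 0.00345). Against the other 4 arrays together the difference was 3.27 ± 1.02 (adjusted p = 0.976). Hhex, a homeobox transcription factor of blood cell lineages, read 6.89 and 8.91 in TCRab CD8aa, 6.07 and 8.16 in TCRgd CD8aa, and 4.73 and 5.15 in TCRab CD8ab. The arrays of the 2 CD8aa subsets overlapped between experiments but not within them.

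In the other leading high genes the smallest of the 4 differences ran from 1.26 for Tspan5 down to 0.75 for Pofut2, against 1.10 for Klra5 and 0.74 for Hhex. Tspan5, a tetraspanin, read 7.77 and 5.84 in TCRab CD8aa, against 6.49 and 6.51 in the other subsets in experiment 1. In experiment 2 TCRab CD8ab was at the floor and TCRgd CD8aa barely above it, with a linear signal of 15.4 against a floor of 15.3. Myo1e, a class I myosin motor, read 8.62 and 8.29 in TCRab CD8aa, 7.72 and 7.33 in TCRgd CD8aa and 5.13 and 5.51 in TCRab CD8ab, and the TCRab CD8aa arrays lay above all others. Klhdc2, a substrate receptor of a ubiquitin ligase, read 10.93 and 11.49 in TCRab CD8aa against 9.82 to 10.41 elsewhere, a difference of 1.16 ± 0.27 (adjusted p = 0.976).

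Clic4, a chloride intracellular channel protein, read 11.59 and 10.87 against 9.39 to 10.79, a difference of 1.21 ± 0.27 (adjusted p = 0.976), while another of its probe sets gave differences of mixed sign. Rpn1, a subunit of the complex that adds N-linked sugars, had 1 probe set higher by 1.24 ± 0.34 and another of mixed sign. Dpf3 (chromatin remodelling), Rasl11b (a Ras-like GTPase), Unc5c (a netrin receptor), Smc6 (genome maintenance) and Pofut2 (an O-fucosyltransferase) were higher by 0.93 to 1.33. For all of these the adjusted p was 0.976.

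**Figure D1:**
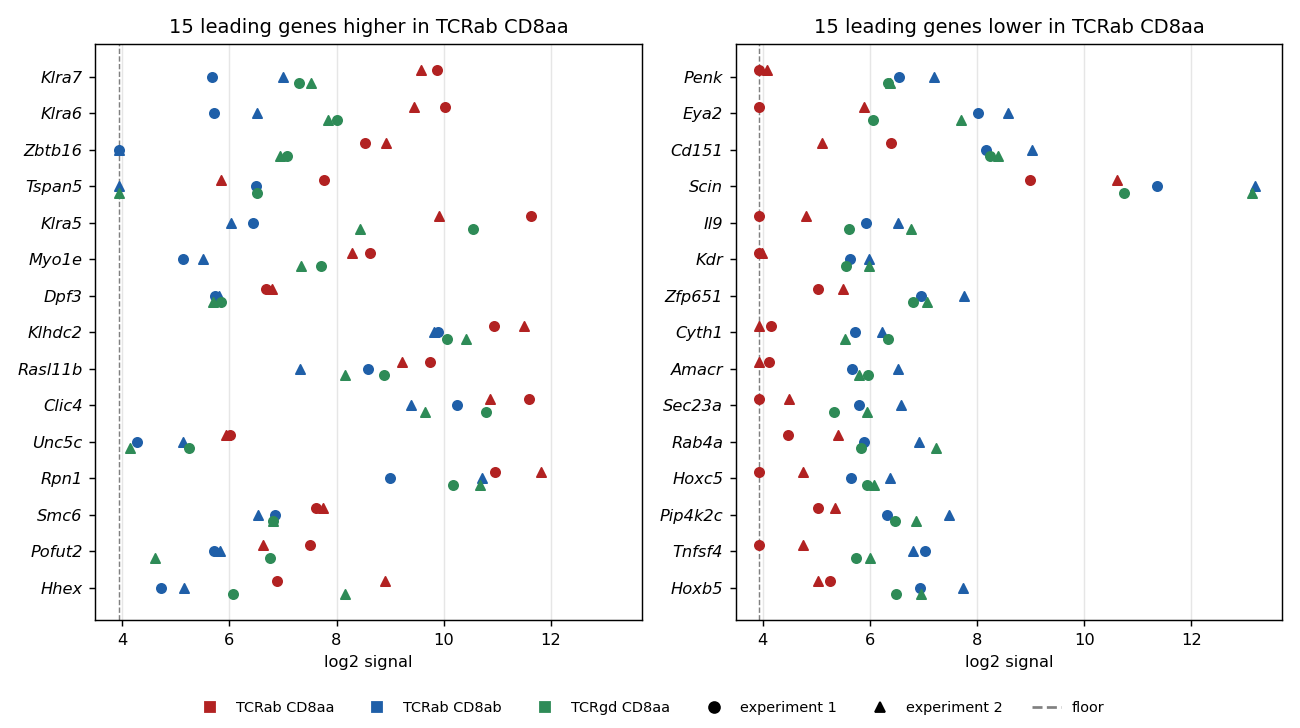
Log2 signal (x axis) of the 15 leading genes on the high side (left panel) and the low side (right panel) on each of the 6 arrays. Colours are subsets, circles are experiment 1 and triangles experiment 2, and the dashed line is the floor at 3.94. Among the high genes, TCRgd CD8aa (green) lies between the others for Klra5, Klra6, Klra7 and Zbtb16. Among the low genes, 9 of 15 have a TCRab CD8aa array at the floor, and among the high genes 2 of 15 have another array there.

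On the low side, Scin had the smallest standard error of the leading genes. Scin encodes scinderin, a calcium-dependent protein that severs actin filaments. Its log2 signal was 8.99 and 10.62 in TCRab CD8aa, 11.36 and 13.19 in TCRab CD8ab, and 10.75 and 13.14 in TCRgd CD8aa. Every TCRab CD8aa array lay below every other array, and the difference was −2.31 ± 0.27 (SE, adjusted p = 0.0885), or 4.95-fold lower. Singly, it passed against TCRab CD8ab (−2.47 ± 0.30, adjusted p = 0.00671) and not against TCRgd CD8aa (−2.14 ± 0.30, adjusted p = 0.112).

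A probe set shared by Lilrb4a and Lilr4b, immunoglobulin-like receptors of which Lilrb4a inhibits activation, was as tight. It also carries several symbols and was singled out after its values were seen. It read 8.84 and 9.04 in TCRab CD8aa, 11.18 and 11.03 in TCRab CD8ab, and 11.25 and 10.89 in TCRgd CD8aa, a difference of −2.15 ± 0.24 (adjusted p = 0.0885). The 2 other subsets were level with each other, so only TCRab CD8aa stood apart. The probe set of Lilr4b by itself read 9.69 and 11.24 in TCRab CD8aa against 11.23 to 12.25, a difference of −1.39 ± 0.32 (adjusted p = 0.976).

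Penk encodes proenkephalin, the precursor of opioid peptides. It was at the floor (3.94) and at 4.09 in TCRab CD8aa, 6.55 and 7.20 in TCRab CD8ab, and 6.33 and 6.38 in TCRgd CD8aa, so that only the 4 other arrays lay clearly above the floor. The difference was −2.60 ± 0.51 (adjusted p = 0.976), a lower bound in size. A brighter probe set of Penk read 6.16 and 5.74 in TCRab CD8aa, 6.28 and 6.99 in TCRgd CD8aa and 10.41 and 8.22 in TCRab CD8ab, so there TCRgd CD8aa lay close to TCRab CD8aa.

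Eya2, a transcriptional cofactor with phosphatase activity, read 3.94 and 5.90 in TCRab CD8aa, 8.01 and 8.57 in TCRab CD8ab and 6.06 and 7.71 in TCRgd CD8aa (−2.67 ± 0.61, adjusted p = 0.976). Cd151, a tetraspanin that binds integrins, read 6.39 and 5.10 in TCRab CD8aa against 8.17 to 9.03 elsewhere (−2.71 ± 0.47, adjusted p = 0.898). The other 2 probe sets of Cd151 gave differences of mixed sign, with means of 0.14 and 0.09, so the gap rested on 1 probe set.

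2 secreted or surface ligands of the immune system were among the leading low genes. Il9, a cytokine that acts on mast cells and mucosal lymphocytes, read 3.94 and 4.80 in TCRab CD8aa against 5.61 to 6.77 (−1.84 ± 0.51). Tnfsf4, the ligand of the costimulatory receptor OX40, read 3.94 and 4.76 against 7.03 and 6.81 in TCRab CD8ab and 5.75 and 6.01 in TCRgd CD8aa (−2.05 ± 0.60). Neither passed, with an adjusted p of 0.976 for both.

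The remaining 9 leading low genes were Kdr (a receptor of vascular endothelial growth factor), Zfp651, Cyth1 (which activates Arf GTPases), Amacr (a racemase of branched fatty acids), Sec23a (vesicle coat), Rab4a (endosome recycling), the homeobox genes Hoxc5 and Hoxb5, and Pip4k2c (a lipid kinase). All were dim, with TCRab CD8aa between the floor and 5.50, and differed by −1.54 to −1.97. Zfp651, Sec23a and Pip4k2c each had another probe set, with differences of −0.30, −0.44 and −0.02. Across the 28 probe sets lower by at least 1 log2 unit in all 4 differences, 14 had a TCRab CD8aa array at the floor, and their median level over all arrays was 5.97 against 8.12 for all measured probe sets. A probe set higher in all 4 differences cannot have a TCRab CD8aa array at the floor, so the counterpart is the floor on the other arrays. Of the 9 high ones, 4 had at least 1 of the other arrays at the floor. The median level of the 9 was 6.75. The part that low signal played in these counts was not tested.

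At the edge of the margin of 1 log2 unit, the last probe sets inside were an unnamed one on the high side, at 1.07, and Cd86, a costimulatory ligand, on the low side, at 1.04. The first outside were at 0.90 on the high side and 0.98 (Ryr1, a calcium release channel) on the low side. Inside the margin on the low side were also Reg3b, an antimicrobial lectin of the epithelium, and Il1r2, the decoy receptor of interleukin 1. Both were highest on TCRgd CD8aa replicate 2, at 12.84 and 10.60, against 4.47 to 8.16 and 4.50 to 7.22 on the other 5 arrays. That is the array with the high enterocyte signal, and the part of that signal in these values was not tested. Without that array, which leaves 3 differences, 22 probe sets were higher and 70 lower by at least 1 log2 unit.

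Either other subset could be the nearer one. In 8 of the 9 high probe sets by at least 1 log2 unit, TCRgd CD8aa lay between TCRab CD8aa and TCRab CD8ab in both experiments, and in the other the order was mixed. For Tspan5, 1 of the 8, the order was close to a tie. There TCRab CD8ab and TCRgd CD8aa read 6.49 and 6.51 in experiment 1 and both 3.94 in experiment 2. Of those 9 probe sets, 5 were Klra ones that may read each other's transcripts. In the 28 low ones TCRgd CD8aa was the nearer subset in 9 and TCRab CD8ab in 2, and the order was mixed in 17. Among all 857 high probe sets TCRgd CD8aa was the nearer in 372, TCRab CD8ab in 102 and neither in 383, and among all 949 low ones the counts were alike, at 392, 116 and 441.

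**Figure D2:**
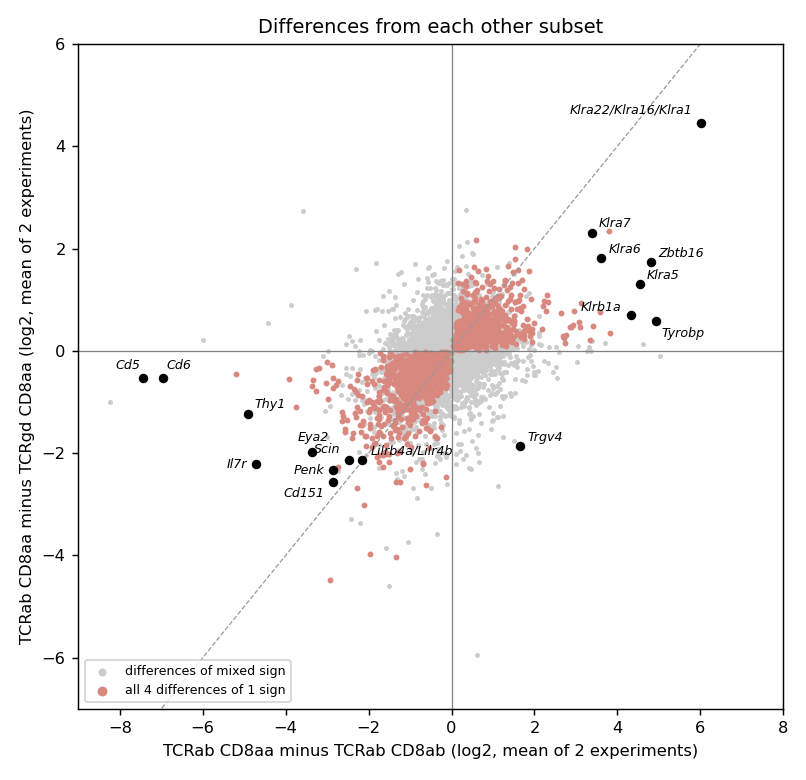
Mean log2 difference of TCRab CD8aa from TCRab CD8ab (x axis) and from TCRgd CD8aa (y axis) over 2 experiments, 1 point per measured probe set, with the diagonal of equal differences dashed and probe sets whose 4 differences have 1 sign in red and labelled genes in black. The Klra22/Klra16/Klra1 probe set lies at 6.02 and 4.46, Zbtb16 and Klra5 lie farther from TCRab CD8ab than from TCRgd CD8aa, and Lilrb4a/Lilr4b lies on the diagonal.

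A fit with a mean for each of the 3 subsets, in which the gap between the other subsets no longer counts as error, called 15 probe sets (0.181%) against the mean of the other 2 subsets at an adjusted p under 0.05. Of these, 6 were higher in all 4 differences: the Klra22/Klra16/Klra1 probe set (adjusted p = 0.0058), Klra5 (0.0291), and Klra6, Klra7, Zbtb16 and Klrb1a (0.0343 each). Another 3 were lower in all 4, namely Thy1 (0.00847), Scin (0.0159) and Lilrb4a/Lilr4b (0.0187). The other 6 had differences of mixed sign: Cd5, Cd6 with both of its probe sets, Cd8b1, Itih5 and an unnamed probe set. A call against the mean of 2 subsets can rest on 1 of them. Klra5, Klra6, Klra7, Zbtb16, Klrb1a and Thy1 each passed against TCRab CD8ab singly, with an adjusted p of 0.000461 to 0.0132, and none passed against TCRgd CD8aa singly, where Klra7 came nearest at 0.82.

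The main fit counted the gap between the 2 other subsets as error, and at an unadjusted p under 0.05 it held 254 probe sets (3.06%), of which 93 were higher and 154 lower in all 4 differences. The test that asks for a difference from each subset singly called 0, with 66 at an unadjusted p under 0.05. The same fits were run with each other subset as the odd one. TCRab CD8ab stood alone in 1517 probe sets on the high side and 1124 on the low side, by at least 1 log2 unit in 88 and 97, and 109 were called. TCRgd CD8aa stood alone in 654 and 754, by at least 1 log2 unit in 9 and 17, and 1 was called. These 3 counts share the same 6 arrays. The shares of probe sets with 1 sign were 21.8% for TCRab CD8aa, 17% for TCRgd CD8aa and 31.8% for TCRab CD8ab, and differences between them were not tested.

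**Figure D3:**
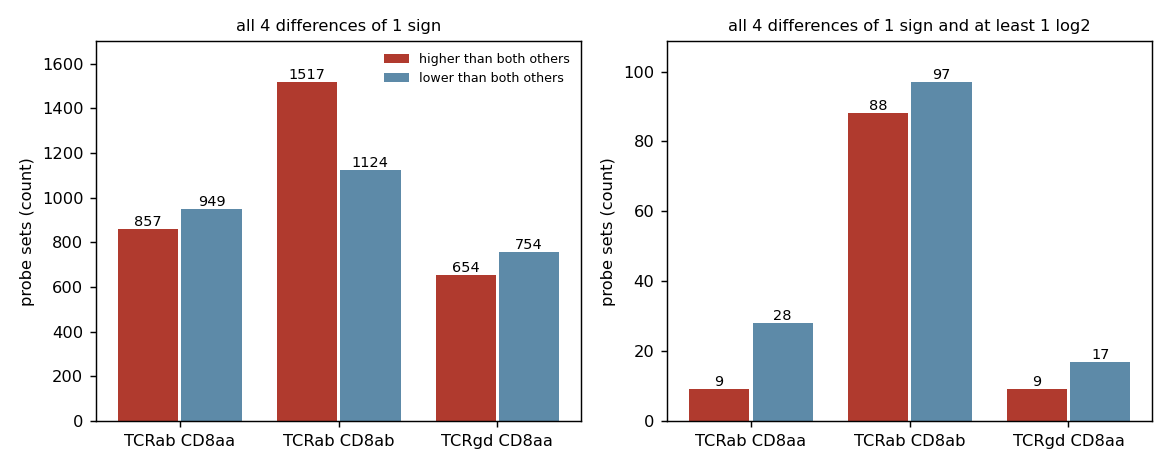
Number of probe sets (y axis) in which 1 subset was above (red) or below (blue) both others in all 4 within-experiment differences (left panel) and by at least 1 log2 unit each time (right panel), of 8296 measured. TCRab CD8aa has 857 and 949 on the left and 9 and 28 on the right, fewer than TCRab CD8ab in each count.

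The 2 experiments could be set against each other, since the differences of 1 do not enter the other. Probe sets in which TCRab CD8aa was lower than both other subsets by at least 1 log2 unit in experiment 1 numbered 160. Of these, 84 (52.5%) were also lower than both in experiment 2, where 34.5% of all measured probe sets were, and 22 were higher than both. On the high side there was no such gain: of 102 probe sets, 27 (26.5%) were again higher than both in experiment 2, where 26.9% of all were, and 41 (40.2%) were lower than both. In the other direction, 53 of 136 high ones (39%, against 34.8% of all) and 147 of 470 low ones (31.3%, against 33.4%) kept their side. Across probe sets, which are not independent, the difference of TCRab CD8aa from the mean of the other subsets correlated between experiments with a Pearson's r of 0.173 (n = 8296). High values in experiment 1 were therefore mostly not high in experiment 2. Klra5, Klra6, Klra7 and Zbtb16 were among the 27 probe sets that were. These genes had been named for a wide margin in both experiments, so their place among the 27 follows from that choice and is no independent check.

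Gene lists were described with 1 probe set per gene, the brightest. Over all 6106 genes measured, 10.4% were higher and 11% lower in all 4 differences, with a median difference of −0.02 log2. No member of any list passed the main fit. The 4 Ly49 genes measured, of 5 on the array, were all higher, with a median of 2.78. Of 8 NK-type activating receptors and adaptors, 4 were higher and 0 lower, with a median of 1.01. That median was 1.28 against TCRab CD8ab and 0.21 against TCRgd CD8aa. Klrb1a, a lectin-like receptor of the NKR-P1 family, read 11.07 and 12.31 in TCRab CD8aa, 7.57 and 7.17 in TCRab CD8ab, and 11.07 and 10.89 in TCRgd CD8aa, so TCRab CD8aa and TCRgd CD8aa were level in experiment 1, and under quantile normalization its differences were of mixed sign. Tyrobp, the adaptor of activating Ly49 and other receptors, read 13.56 and 12.88, 7.75 and 8.84, and 13.42 and 11.83 in the same order. Klrk1, which encodes NKG2D, read 6.95 and 7.02 in TCRab CD8aa against 4.05 to 6.69 elsewhere. Of 10 other inhibitory receptors, 0 were higher and 2 lower, near the shares over all genes. Pdcd1, the receptor PD-1, read 4.54 and 3.94 in TCRab CD8aa, 8.61 and 7.69 in TCRab CD8ab and 5.35 and 4.24 in TCRgd CD8aa. Pdcd1 had differences of mixed sign under quantile normalization.

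Among 18 genes of conventional naive and memory T cells, 0 were higher and 6 lower, with a median difference of −1.52. That median was −2.78 against TCRab CD8ab and −0.25 against TCRgd CD8aa, so most of it was the gap to TCRab CD8ab. Il7r, the receptor for the survival cytokine interleukin 7, read 5.85 and 6.51 in TCRab CD8aa, 11.48 and 10.32 in TCRab CD8ab, and 6.81 and 9.99 in TCRgd CD8aa. TCRgd CD8aa of experiment 2 thus lay near TCRab CD8ab. Thy1, a surface glycoprotein of T cells, read 7.70 and 7.26 in TCRab CD8aa, 12.47 and 12.34 in TCRab CD8ab and 9.33 and 8.10 in TCRgd CD8aa, with no overlap. Klf3, a transcription factor of resting lymphocytes, read 5.93 and 3.94 in TCRab CD8aa, 6.02 and 6.04 in TCRgd CD8aa and 9.0 and 8.35 in TCRab CD8ab.

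Of 29 lineage transcription factors, 5 were higher and 3 lower, with a median of 0.08, and Zbtb16 and Hhex were the first by p on the high side. Irf4, which acts in effector differentiation, read 6.96 and 9.37 in TCRab CD8aa, 7.51 and 9.98 in TCRgd CD8aa and 10.78 and 12.25 in TCRab CD8ab. Proximal T cell receptor signalling had 3 of 25 on each side. Cd247 read 8.51 and 7.07 in TCRab CD8aa, 10.39 and 9.11 in TCRab CD8ab, and 10.15 and 7.70 in TCRgd CD8aa (−1.54 ± 0.41, adjusted p = 0.976), whereas Cd3d, Cd3e and Cd3g, other chains of the complex, had differences of mixed sign. Tec, a kinase of receptor signalling, was at 11.05 and 10.99 against 8.84 to 10.85. Ptprc, which encodes CD45, had 1 probe set with a difference of −0.85 ± 0.33 and a brighter one of mixed sign. Negative regulators of signalling had 0 of 22 higher and 3 lower, among them Cish, a suppressor of cytokine signals, at 8.69 and 6.78 against 9.57 and 8.92 in TCRab CD8ab and 9.14 and 7.46 in TCRgd CD8aa.

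**Figure D4:**
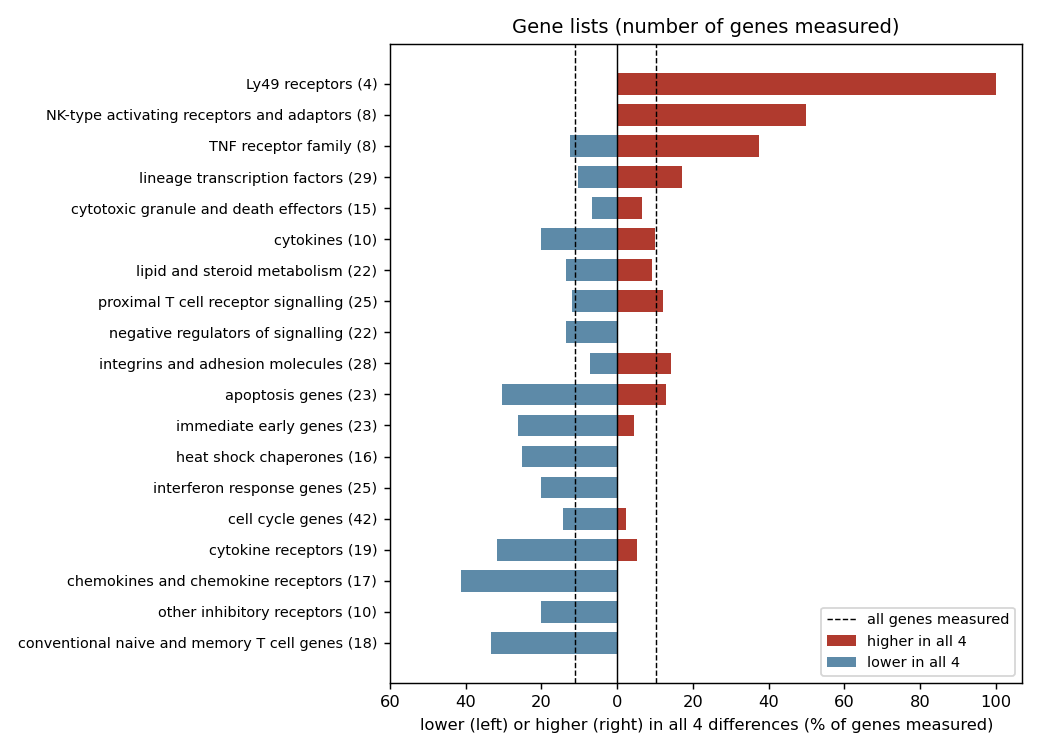
Share of the measured genes of each list (x axis, percent; number of genes in brackets) that was higher (red, right) or lower (blue, left) in TCRab CD8aa in all 4 differences, ordered by the median difference. Dashed lines mark the shares over all genes, 10.4% and 11%. The lists of Ly49 receptors, NK-type activating receptors and TNF receptor family have the highest shares on the high side, at 100%, 50% and 37.5%.

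Counts of effector genes were near the shares over all genes, 10.4% higher and 11% lower. Cytotoxic granule and death effector genes had 1 of 15 higher and 1 lower, with a median of 0.07: the granzyme Gzmk read 6.91 and 7.85 in TCRab CD8aa against 8.19 to 11.10. Cytokines had 1 of 10 higher and 2 lower. Ifng, the gene of interferon gamma, read 7.22 and 9.17 in TCRab CD8aa, 9.25 and 11.53 in TCRab CD8ab and 7.59 and 11.16 in TCRgd CD8aa (−1.69 ± 0.48, adjusted p = 0.976). Its gap to TCRgd CD8aa was small in experiment 1 and large in experiment 2. Tgfb3, a transforming growth factor, read 11.25 and 10.75 in TCRab CD8aa, above 10.65 and 10.26 in TCRgd CD8aa and 8.68 and 9.34 in TCRab CD8ab. Tnfsf11, the ligand RANKL, read 4.28 and 5.47 in TCRab CD8aa, 8.16 and 8.11 in TCRab CD8ab and 5.27 and 6.06 in TCRgd CD8aa.

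Cytokine receptors had 1 of 19 higher and 6 lower, with a median of −0.33. Chemokines and their receptors had 0 of 17 higher and 7 lower, the largest share on the low side of the 19 lists, with a median of −0.40. Ccl4, a chemokine of activated lymphocytes, read 9.75 and 7.88 in TCRab CD8aa against 10.09 and 9.44 in TCRab CD8ab and 10.22 and 8.95 in TCRgd CD8aa. Ccr9, the gut homing receptor, read 8.30 and 8.79 against 9.74 and 10.14 in TCRab CD8ab and 9.10 and 8.97 in TCRgd CD8aa, and Cxcr3, a receptor of interferon-induced chemokines, was −1.01 ± 0.49. When each array was brought to the same median, 1 of 16 chemokine genes was higher and 3 lower, where 1154 of all 6110 genes were higher and 328 lower. Ccr9 and Cxcr3 had differences of mixed sign under that scaling. The TNF receptor family had 3 of 8 higher and 1 lower: Tnfrsf21, a death domain receptor, read 7.18 and 7.84 in TCRab CD8aa, 6.08 and 7.44 in TCRgd CD8aa and the floor on both TCRab CD8ab arrays, and Tnfrsf9, which encodes 4-1BB, was higher by 0.64 ± 0.31, while Fas, a death receptor, differed by −1.38 ± 0.63 (adjusted p = 0.976 for all 3).

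Apoptosis genes had 3 of 23 higher and 7 lower. The first by p were on the low side. Casp1, an inflammatory caspase, read 7.40 and 9.46 in TCRab CD8aa, 9.36 and 10.24 in TCRab CD8ab and 9.34 and 10.60 in TCRgd CD8aa (−1.46 ± 0.31), and Casp4, another, read 5.63 and 7.17 against 7.23 to 8.35 (−1.56 ± 0.45). Birc3, an inhibitor of cell death in TNF signalling, was also lower (−1.03 ± 0.27). For all 3 the adjusted p was 0.976, and TCRab CD8aa was below both other subsets in each experiment.

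Interferon response genes had 0 of 25 higher and 5 lower, with Psmb8, an immunoproteasome subunit, at −0.73 ± 0.25. Cell cycle genes had 1 of 42 higher and 6 lower. Ccnd2, the cyclin that starts the cycle in lymphocytes, was the high one (12.82 and 11.78 in TCRab CD8aa against 11.79 and 10.76 in TCRab CD8ab and 12.47 and 11.07 in TCRgd CD8aa), and Birc5 and Ccnb2, which act in mitosis, had differences of −0.89 ± 0.37 and −0.86 ± 0.45. Without TCRgd CD8aa replicate 2, 29 of the 42 were lower in all remaining differences, against 1282 of all 6106 genes, and without TCRab CD8aa replicate 2 the count was 32 of 42, against 2080. With any of the other 4 arrays left out it was 7 to 11. Fewer differences are asked for when an array is left out, so such counts cannot fall. Without TCRgd CD8aa replicate 2, 9 of 25 interferon response genes, 9 of 18 conventional T cell genes and 7 of 22 negative regulators of signalling were lower.

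Immediate early genes had 1 of 23 higher and 6 lower, heat shock chaperones 0 of 16 and 4, integrins and adhesion molecules 4 of 28 and 2, and lipid and steroid metabolism 2 of 22 and 3. With the same median on each array, the low counts were 1 of 23 for immediate early genes and 1 of 16 for heat shock chaperones, beside the 328 of 6110 over all genes. Acly, which makes acetyl-CoA for lipid synthesis, stood out among the metabolic genes, at 12.99 and 12.93 in TCRab CD8aa, 12.63 and 10.32 in TCRab CD8ab and 11.68 and 11.13 in TCRgd CD8aa (1.51 ± 0.43, adjusted p = 0.976). Both TCRab CD8aa arrays lay above all others.

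The balance of the 2 directions differed between scalings. The share of high probe sets among those with 1 sign was 47.5% with the scaling of the authors, 59.5% (1075 high and 733 low) with quantile normalization, and 75.8% (1524 and 486) with the same median on each array, which moved the median difference over all probe sets from −0.03 to 0.15. With the scaling of the authors and a filter at the 60th percentile the share of high probe sets was 54%. The median difference of TCRab CD8aa from TCRab CD8ab in experiment 2 was −0.20, and the other 3 within-experiment medians were 0 to 0.02. Every one of the 15 leading high genes kept its side under both other scalings. The 15 low ones did so too, except that 1 of them was not measured under quantile normalization. With the filter at the 60th percentile, 12 of the 15 low genes and 4 of the 15 high ones were no longer measured. Both sets were picked for a wide margin on these same arrays, so keeping their side is no independent check.

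Markers of other cells were examined beside these results. Over all genes measured, 11% were lower and 10.4% higher in all 4 differences. Of 17 genes of macrophages and dendritic cells measured, 6 were lower and none was higher. The 6 included Cd86 and Cd74, while the brighter Ctss and Itgax were of mixed sign. The summed signal of 23 such genes was 6472 and 8726 in TCRab CD8aa and 7126 to 12743 on the other arrays. Lyz2, Aif1, Adgre1 and Itgam were at the floor on both TCRab CD8aa arrays. They were at or near it on the other arrays too, at 4.57 or less, except for Lyz2 on TCRgd CD8aa replicate 2 (8.24). B and plasma cell markers had 3 of 10 lower and 1 higher, and stroma and endothelium 5 of 10 lower, with Thy1, which T cells also express, and Kdr among them. Enterocyte markers had 0 of 12 of 1 sign, as had 0 of 7 Paneth and goblet cell markers. Their part in the private genes was not tested.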

How the data were processed

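The authors deposited signal intensity from MAS5, per the submitters' processing notes (version not given in the sources used here), in linear units, 1 value per probe set and array. The trimmed mean was 500.4 on all 6 arrays. Detection calls and probe positions were not used. Of 12488 probe sets, 66 were controls, 10833 carried 1 gene symbol, 396 several and 1193 none. Before log2, a floor was put at the 20th percentile of the whole table (signal 15.3). Probe sets with at least 2 arrays above the 40th percentile (56.4) were tested: 8296, of which 7396 carried 1 symbol, for 6106 genes. Between any pair of arrays at most 45 values were equal.

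Limma 3.58.1 (R 4.3.3, eBayes with trend, Benjamini-Hochberg over all 8296) was fitted with 1 term for TCRab CD8aa against the other 4 arrays and the replicate number as block. Deviations from subset means correlated between same-numbered arrays at 0.619, 0.713 and 0.603, and the series design states that each experiment used 1 pool. A second fit had a mean per subset. All adjusted p-values are limma's. In the second fit they measure the spread between pools, and in the first the gap between the other subsets also counts as error. Single differences and their SE come from the second fit. The fits were tested on simulated data.

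Named genes were, in each direction, the 15 genes with 1 symbol whose smallest of the 4 differences was largest, since none was called, up to 3 members with the smallest p of each of 19 lists, and the sort markers. A named gene with several probe sets was represented by the one with the smallest p in the main fit, which can be the most extreme of them. Members and lists were chosen with earlier results of these data known. Promoters were aligned locally with Biopython 1.88. Alternatives were other scalings, floors, filters and fits, and each array left out. Counts at a margin of 1 log2 unit and list counts under other settings were added after seeing the data.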

Additional observations from a re-analysis of the deposited data

How the results depend on the processing

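Precision is limited by the number of arrays, though the same fit called 109 probe sets for TCRab CD8ab as the odd subset. Without a replicate block, limma called 0 probe sets, as with it. The pairing of arrays by experiment still mattered: the adjusted p of Scin, Lilrb4a/Lilr4b and Klra22/Klra16/Klra1 was 0.0885 with the block and 1 without it. With 3 subset means in place of 2 sides it called 15 (6 higher and 3 lower in all 4 differences). The 6 include Klrb1a, which was level with TCRgd CD8aa in experiment 1. At an adjusted p under 0.10 it called 3 (1 higher, 2 lower), and 1 differed from each subset singly. Singly, 1 also differed with the same median on each array and with 16 added in place of the floor, each time the Klra22/Klra16/Klra1 probe set (adjusted p = 0.0321 and 0.0275). The same median gave 1524 probe sets above and 486 below in all 4 differences, and a filter at the 60th percentile gave 585 below. By at least 1 log2 unit, 17 were lower with 16 added, 6 with the filter at the 60th percentile, 45 with a floor at the 10th and 11 with one at the 30th percentile, and 14 were higher with no filter. The cause of these shifts was not tested, but a stricter filter tests fewer probe sets and a higher floor shortens low differences.

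Leaving out 1 array at a time, the fit called 0 to 1 probe sets, 0 to 1 private higher and 0 to 0 private lower. From 1133 to 2889 were above and 1271 to 2858 below in all remaining differences, 14 to 136 and 47 to 470 by at least 1 log2 unit. Fewer differences remain then, 2 where a TCRab CD8aa array is left out. From 0 to 9 differed from each subset singly. The highest count came without TCRgd CD8aa replicate 1. That subset then rests on replicate 2 alone, the array with the high enterocyte and B and plasma cell signals. The probe sets were those of Klra22/Klra16/Klra1, Scin, Il7r, Cd8b1, Emp1, Igkv6-23, several immunoglobulin kappa segments together, the Amy2a amylase genes and an unnamed one. The part of replicate 2 in these calls was not tested. Leaving out either TCRab CD8ab array or TCRgd CD8aa replicate 2 gave 1, that same Klra probe set.

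Of 1428 values of 91 named genes under 16 settings, 1406 kept their direction and side of the threshold, 8 passed only with 3 subset means and 14 reversed, all in 6 sort markers near 0, whose values with 1 array left out ran from −0.28 to 0.23 for Trbv1, −0.26 to 0.05 for Cd3e, −0.89 to 0.69 for Trgv4, −0.13 to 0.65 for Cd3d, −1.12 to 0.51 for Cd4 and −0.06 to 0.33 for Trgv1. Trbv1 was 0.16 with quantile normalization and 0.14 with the same median. With the same median, Cd3e was 0.09 and Trgv4 0.08. The cause was not tested.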
